A study of Mus musculus with 24 samples.

Results

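The glutathione, thioredoxin and peroxide defence genes were taken from the deposited count table by symbol and biotype. Protein-coding rows whose symbols name glutathione peroxidases, peroxiredoxins, thioredoxins and their reductases, superoxide dismutases, glutathione S-transferases, glutaredoxins, the enzymes that make and recycle glutathione, catalase, sulfiredoxin, Nqo1, the haem oxygenases, Nfe2l2 or Keap1 were kept. This gave 55 genes of the 33619 in the table, of which 17665 were protein-coding, and no measured value entered the choice. The samples were islet β cells of Ins1Apple mice, a genotype in which the insulin 1 locus drives the fluorescent protein Apple. CD1 females, an outbred stock, ate a high-fat diet (HFD), a low-protein diet (LPD) or the control diet (ND) for 2 weeks and were then mated to Ins1Apple males. All offspring, in all groups, received the control diet from birth. Islets were taken at about 7 weeks, dispersed and sorted for Apple, and total RNA was sequenced after removal of ribosomal RNA. The 24 libraries formed 6 groups of 4: HFD male, HFD female, LPD male, LPD female, ND male and ND female. The labels do not say whether libraries of a group came from separate animals or litters, so p-values measure the spread between these samples only.

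β cells generate superoxide and hydrogen peroxide while they burn glucose and fold proinsulin, and they are known for low activities of catalase and glutathione peroxidase. Superoxide dismutases turn superoxide into hydrogen peroxide, which catalase, glutathione peroxidases and peroxiredoxins reduce to water. Glutathione and thioredoxin carry the electrons, their reductases renew them with NADPH, and the transcription factor NRF2 (gene Nfe2l2), held back by KEAP1, drives many of these genes.

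The NRF2 binding element is usually written with the core TGACNNNGC, where N is any base. The core was searched on both strands in RefSeq promoter windows (GRCm38.p6), each running from 250 bases before to 50 bases after the start of a gene, 300 bases in all. A window was at hand for 48 of the 55 genes, and 9 of them held the core (18.8%), against 3781 of the 27025 gene symbols in the table (14%). The 9 were Txnrd1, Gsta3, Gclm, Prdx1, Srxn1, Gstm5, Gstm7, Nfe2l2 and Sod1. Shown here are the matches in the 2 genes of this set that differed in HFD libraries, Txnrd1 and Gsta3, and in 3 genes of glutathione synthesis and peroxide reduction that did not pass the test. Capitals mark the core, which is printed as its reverse complement where it lies on the opposite strand.
Txnrd1: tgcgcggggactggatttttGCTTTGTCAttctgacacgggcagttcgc
Gsta3: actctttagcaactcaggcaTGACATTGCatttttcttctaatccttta
Gclm: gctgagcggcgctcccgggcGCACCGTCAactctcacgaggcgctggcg
Prdx1: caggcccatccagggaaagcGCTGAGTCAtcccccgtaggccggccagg
Srxn1: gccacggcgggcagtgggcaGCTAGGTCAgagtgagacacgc
These lie in the windows chr10:82858956-82859255, chr1:21240335-21240634, chr3:122245307-122245606, chr4:116685349-116685648 and chr2:152105274-152105573, in that order, all on the plus strand. The Txnrd1 window lies inside the span of the gene, which begins at chr10:82833951, and not at its first base. Relative to the RefSeq start, the first base of the core was at -92 in Txnrd1, -121 in Gsta3, -134 in Gclm, -133 in Prdx1 and 29 in Srxn1. A match is a run of letters and not a measured binding site.

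Gpx3, the gene of the set with the smallest adjusted p in HFD against ND, had no such core in its window at chr11:54902604-54902903 (plus strand, 56.3% G or C), which is shown whole because the diet comparison turns on this gene.
Gpx3: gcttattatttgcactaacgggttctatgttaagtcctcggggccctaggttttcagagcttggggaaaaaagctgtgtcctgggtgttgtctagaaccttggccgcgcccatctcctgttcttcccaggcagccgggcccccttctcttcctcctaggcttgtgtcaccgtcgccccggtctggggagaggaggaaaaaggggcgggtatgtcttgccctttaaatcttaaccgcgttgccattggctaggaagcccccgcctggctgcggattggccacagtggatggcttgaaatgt
No match says only that these letters are not in this window.

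The libraries held 12433228 to 26375565 counted reads, with a median of 20719858. Ins1, Ins2 and Pdx1 were present in every library, and 12 β-cell markers summed to between 83346 and 325519 CPM. CPM are counts scaled by the library total over the genes tested, corrected with edgeR's TMM factor of that library. That sum was 229393 to 325519 CPM in HFD males, against 177727 to 222550 CPM in ND males, and 4 δ-cell markers summed to 244 to 344 CPM in HFD females, against 384 to 596 CPM in ND females. Ins2 was at 19386 to 48967 CPM in LPD male 4 and LPD females 1, 2 and 3 and at 35614 CPM in ND female 2. The part of these differences in the results was not tested. In the 4 HFD female libraries 4.40% to 8.18% of the genes detected had 1 to 9 counts, against 13.2% to 31.9% in the other 20, and 13225 to 19404 genes were detected, against 19160 to 25830. A line above the column names carries library numbers which disagree with those names: read through the sample descriptions, they give a different diet for all 24 columns and a different sex for 8. Groups here follow the column names, whose sex matched Xist and Y-linked counts in 24 of 24 libraries. Sex does not settle the diet of the columns, so every diet result rests on the column names. In bulk RNA, fewer cells of a type and less RNA per cell cannot be told apart.

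Levels between genes are given as FPKM, the deposited unit corrected for length, as the mean of the 6 group means. Of the 55 genes, 20 reached 10 FPKM, 23 lay between 1 and 10, and 12 were below 1. Gpx3, the secreted glutathione peroxidase, was the most abundant at 57.4 FPKM. Txn1, the cytosolic thioredoxin, followed at 37.4 FPKM and Gpx4, which reduces lipid peroxides in membranes, at 37.0 FPKM. Sod1, the copper-zinc superoxide dismutase of the cytosol, stood at 31.0 FPKM and Gpx1, the general cytosolic glutathione peroxidase, at 29.0 FPKM. Cat, which encodes catalase, had only 1.28 FPKM, below all 7 members of the peroxiredoxin and sulfiredoxin group, whose lowest was Prdx4 at 6.38 FPKM.

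**Figure D1:**
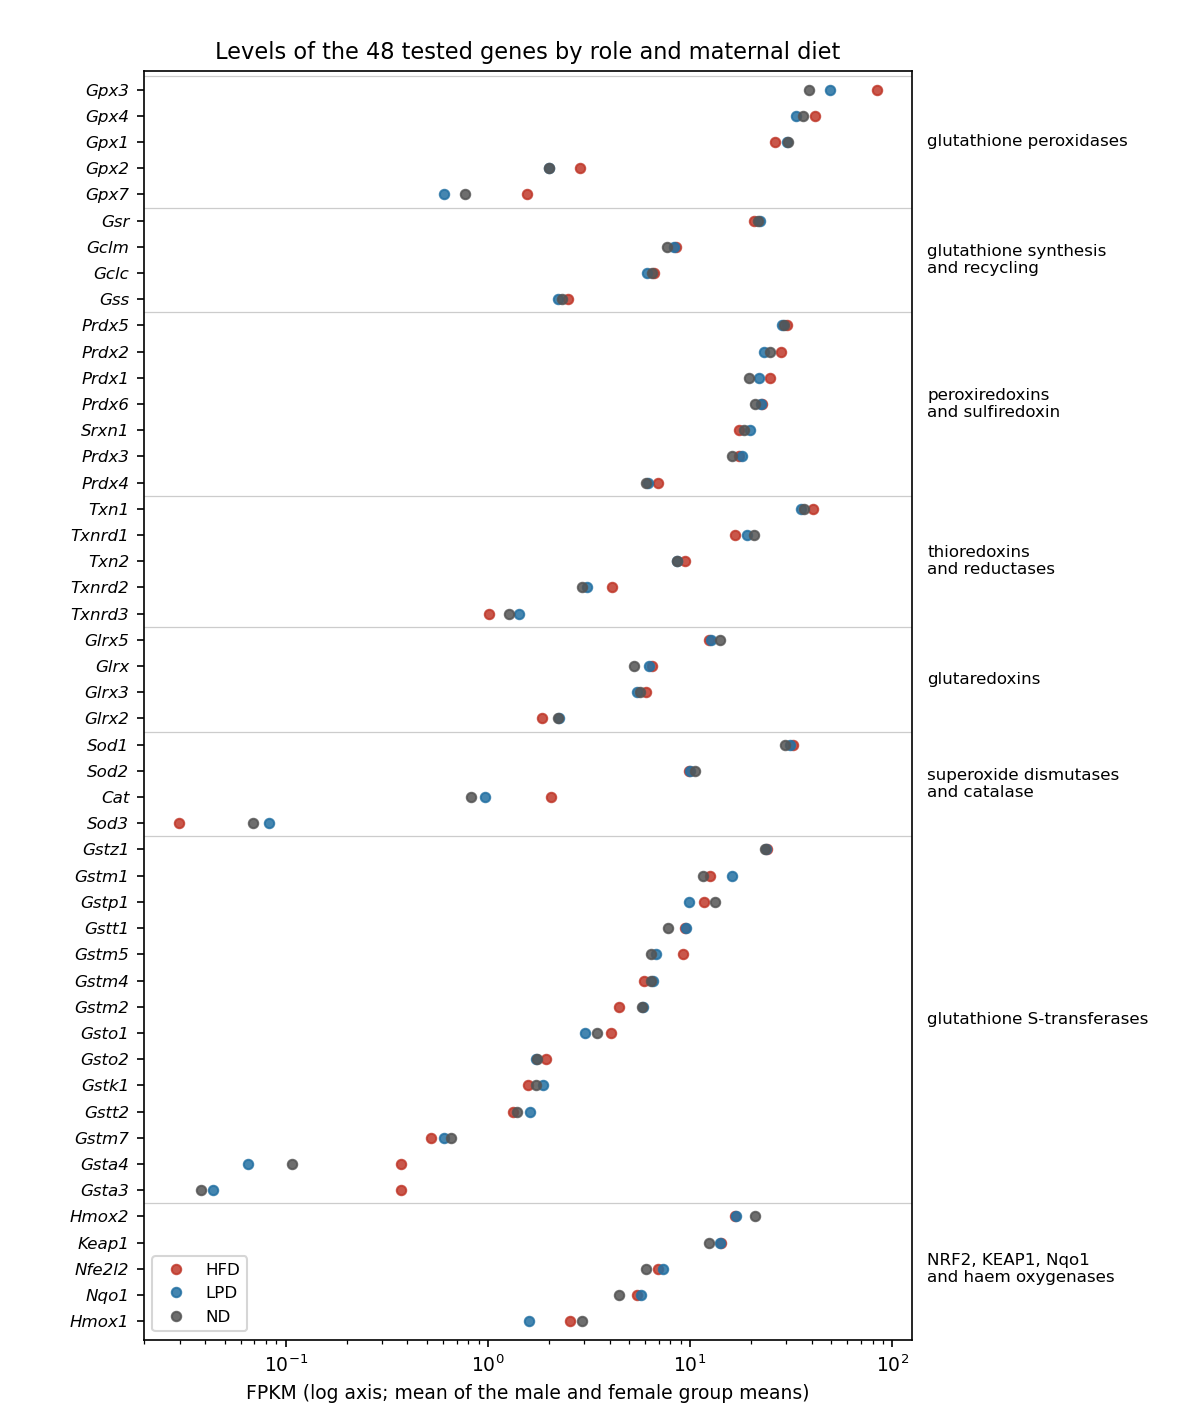
Level of each of the 48 tested genes in FPKM on a log axis, ordered by role, with 1 point per maternal diet (mean of the male and female group means). Gpx3 lies at the top of the set with 57.4 FPKM over all groups and Cat at 1.28 FPKM, and the 3 diets mostly overlap.

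Within the groups the genes had these levels. Among the peroxidases, Gpx2, known from gut epithelium, had 2.29 FPKM and Gpx7, of the endoplasmic reticulum, 0.979 FPKM. Glutathione reductase, Gsr, stood at 21.5 FPKM, above the subunits of glutamate-cysteine ligase, Gclm (8.19 FPKM) and Gclc (6.42 FPKM), and above glutathione synthetase, Gss (2.35 FPKM). The peroxiredoxins of mitochondria, peroxisomes and cytosol were all well expressed, from Prdx5 at 29.3 FPKM, Prdx2 at 25.5, Prdx1 at 22.1 and Prdx6 at 22.01 FPKM to Prdx3 at 17.3 FPKM. Srxn1, sulfiredoxin, which repairs overoxidized peroxiredoxins, had 18.6 FPKM. The cytosolic thioredoxin reductase Txnrd1 had 18.9 FPKM, against 3.36 for the mitochondrial Txnrd2, 1.24 for Txnrd3 and 8.90 for the mitochondrial thioredoxin Txn2. Glutaredoxins ranged from Glrx2 at 2.104 FPKM to Glrx5, which acts in iron-sulfur cluster assembly, at 13.1 FPKM. Sod2, the manganese enzyme of mitochondria, had 10.1 FPKM and the extracellular Sod3 0.0603 FPKM.

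Among the 20 glutathione S-transferases, which join glutathione to electrophiles, Gstz1, an enzyme of tyrosine breakdown, led with 23.8 FPKM, followed by Gstm1 at 13.4, Gstp1 at 11.6 and Gstt1 at 8.93 FPKM, while Gsta4 had 0.181 and Gsta3 0.152 FPKM. Of this family 6 members, Gstp2, Gstm6, Gstt3, Gstm3, Gsta2 and Gstt4, and the peroxidase Gpx8 did not pass the filter on low counts, with at most 57 counts over all 24 libraries, which left 48 genes for testing. Paralogs of the Gsta, Gstm, Gstp and Gstt families share sequence, so the split of reads between close copies is uncertain. Keap1 had 13.6, Nfe2l2 6.78, Nqo1, a quinone reductase and common readout of NRF2, 5.21, Hmox2, the constitutive haem oxygenase, 18.2 and Hmox1, the inducible form, 2.35 FPKM. The median coefficient of variation within groups was 12.8% over the 48 genes and 18.5% over all 19235 genes tested. The 2 sets were not matched for level, so this difference is not read as a trait of these genes.

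The first comparison asked which of these genes differed in β cells of young adults whose mothers had eaten the high-fat diet. Gpx3 and Txnrd2 were higher in HFD libraries, Txnrd1 was lower, and the low-level Gsta3 was higher. In edgeR's quasi-likelihood test with Benjamini-Hochberg adjustment over all genes, 3 of the 48 rose, against 1.67% of all genes tested, and 1 fell, against 5.52%. Gsta3, 1 of the 3, passed the filter on low counts through the HFD libraries, where it is high. The median log2 fold change was 0.11 over the 48 genes and -0.06 over all genes, and 31 of the 48 were above 0. By role, 1 of 5 tested glutathione peroxidases rose, 1 of 5 thioredoxins and reductases rose and 1 fell, and 1 of 14 glutathione S-transferases rose. None of the 7 peroxiredoxin and sulfiredoxin genes, the 4 genes of glutathione synthesis and recycling, the 4 glutaredoxins, the 4 superoxide dismutases and catalase or the 5 genes of the NRF2 group passed in this edgeR fit. Of the 48 genes 12 had an unadjusted p below 0.05 in edgeR, as had 3677 of all 19235 genes tested. DESeq2 called 7 of the 50 genes of the set that it tested, where it called 9.16% of all genes.

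Gpx3 (chr11:54902453-54910377) showed the clearest difference of the set. HFD males had 143, 145, 161 and 141 CPM and HFD females 155, 148, 166 and 154 CPM, against 71.5, 69.9, 78.4 and 86.5 CPM in ND males and 60.6, 37.5, 51.8 and 109.6 CPM in ND females. The lowest HFD library lay above the highest ND library, ND female 4, so that the 8 HFD and 8 ND libraries did not overlap. The log2 fold change was 1.10 ± 0.13 (SE), with an edgeR adjusted p of 4.56e-06. Among all genes tested, 55 had every HFD library above every ND library.

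Txnrd1 (chr10:82833951-82897712) was the only gene of the set with every HFD library below every ND library. It ranged from 105 to 129.9 CPM in HFD, with a median of 119 CPM, against 132 to 162 CPM in ND, with a median of 145 CPM. Its log2 fold change was -0.31 ± 0.06 (SE), with an edgeR adjusted p of 0.00238. Of all genes tested, 100 had this order. Txnrd1 overlaps Eid3 on the same strand, at an average of 5.63 CPM, against 134 CPM for Txnrd1.

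Txnrd2 (chr16:18426384-18479073), the mitochondrial reductase, rose. It had 14.8, 15.2, 16.2 and 14.1 CPM in HFD males and 14.1, 18.8, 24.7 and 24.5 CPM in HFD females, against 11.4, 10.2, 12.2 and 9.13 CPM in ND males and 15.1, 13.9, 13.3 and 16.1 CPM in ND females. All HFD males exceeded all ND males, as in 8.05% of all genes tested, whereas HFD female 1 lay within the ND female range. The log2 fold change was 0.49 ± 0.15 (SE) with an edgeR adjusted p of 0.0373. The call was lost when any of 10 libraries was left out (HFD males 1, 2 and 3, HFD female 3, ND males 1, 2 and 4 and ND females 1, 2 and 3), with adjusted p up to 0.0832.

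Gsta3 is a glutathione S-transferase of the alpha class, well known from liver, and its mean of 0.648 CPM kept it outside the genes set for full description, so it is named here because it passed the test. Counted reads were 31, 5, 27 and 11 in HFD males and 0, 16, 47 and 74 in HFD females, against 1, 2, 1 and 4 in ND males and 5, 2, 11 and 2 in ND females. HFD libraries held 211 reads together, against 28 in ND libraries, yet HFD female 1 held none. The log2 fold change was 3.28 ± 0.85 (SE), with an edgeR adjusted p of 0.0169. Gsta3 passed the filter on low counts through the HFD libraries, where it is high, so its call is no independent support.

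**Figure D2:**
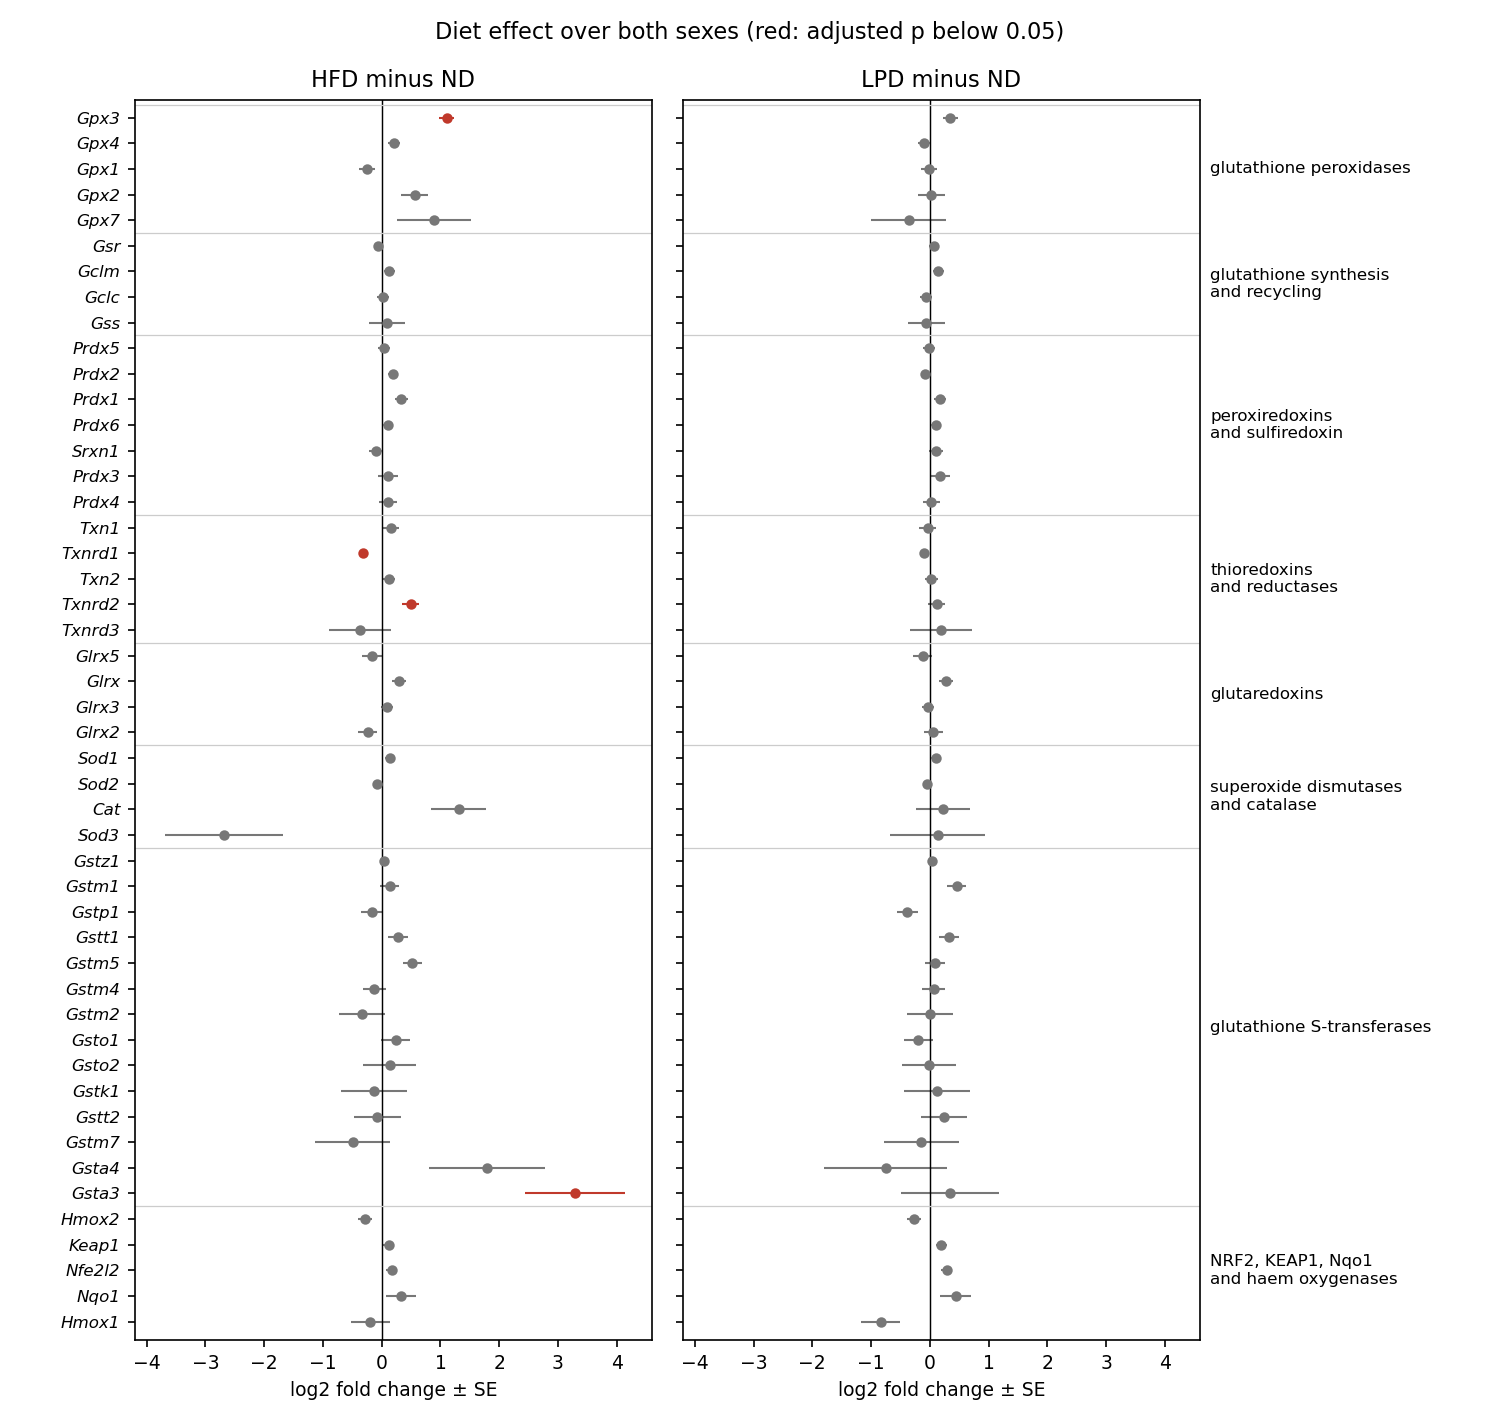
Log2 fold change ± SE of the 48 tested genes by role over both sexes, HFD minus ND at left and LPD minus ND at right, with genes of edgeR adjusted p below 0.05 in red. Gpx3, Txnrd2 and Gsta3 lie above 0 and Txnrd1 below 0 in red at left, and no gene is red at right.

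Transcripts of hepatocytes moved with the same libraries. The sum of 24 hepatocyte markers was 861 to 999.5 CPM in HFD males and 463 to 706 CPM in HFD females, against 679.7 to 782 CPM in ND males and 252 to 414 CPM in ND females. Most of it was Ttr, which α cells also express, and without Ttr the other 23 summed to 121 to 209 CPM in HFD males and 194 to 326 CPM in HFD females, against 19.7 to 21.8 CPM in ND males and 15.1 to 28.1 CPM in ND females. In HFD males all 23 were detected, and in HFD females all 23, against 11 in ND males and 12 in ND females, where Cps1, Cyp3a11 and Mup20 were among those at 0 in both. Alb, the albumin gene, had 33.6 to 111 CPM in the 8 HFD libraries, against 0 to 0.394 CPM in the 8 ND libraries and 0 to 0.387 CPM in the 8 LPD libraries. The part of these transcripts in the HFD differences of Gpx3, Gsta3, Cat and the other genes was not tested. The sum of 18 acinar markers was 111 to 505 CPM in HFD libraries, against 299 to 873 CPM in ND libraries, and its part was not tested either.

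**Figure D3:**
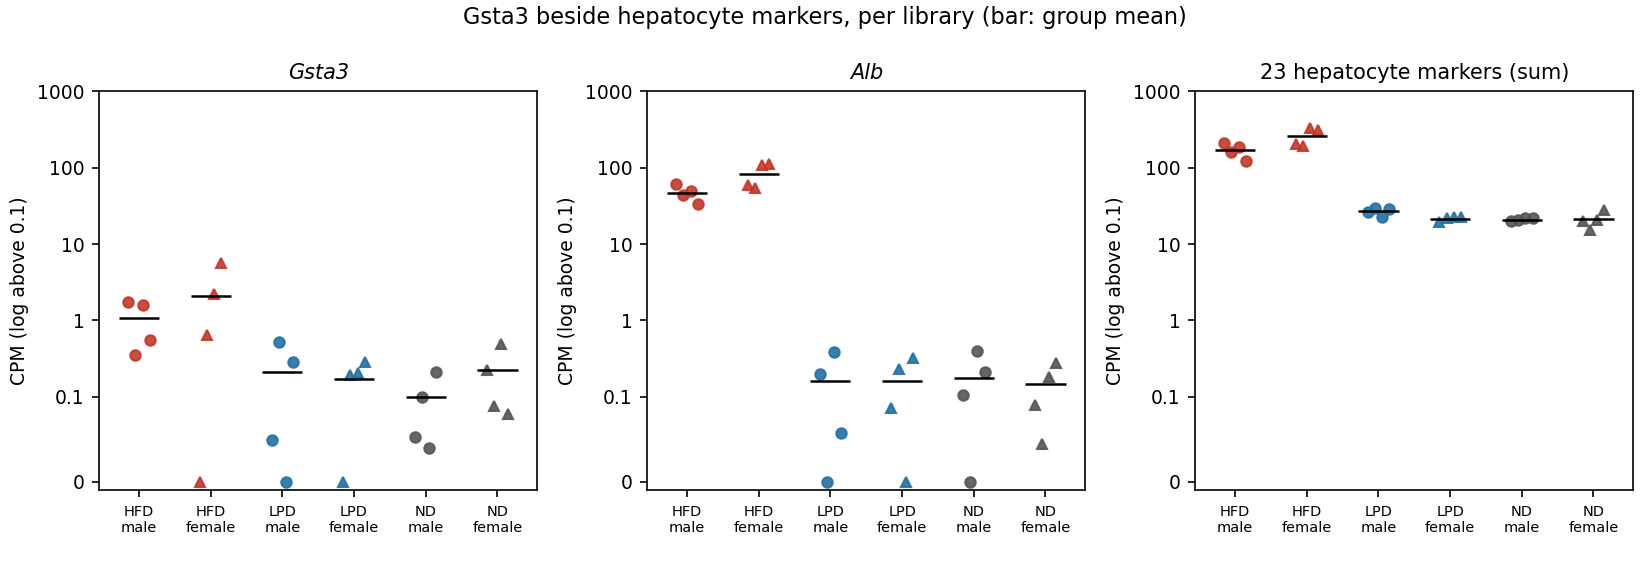
CPM per library of Gsta3, of Alb and of the sum of 23 hepatocyte markers without Ttr, on a scale that is linear below 0.1 and logarithmic above, with circles for males, triangles for females and a bar at each group mean. Alb spans 33.6 to 111 CPM in HFD and at most 0.394 CPM in the other groups, and Gsta3 is at 0 in HFD female 1.

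Prdx1, Cat and Gstm5 had higher means in HFD without passing the test. Prdx1, a cytosolic peroxiredoxin, ranged from 50.4 to 99.4 CPM in HFD, with a median of 72.9 CPM, against 42.3 to 73.9 CPM in ND, with a median of 59.1 CPM. Its log2 fold change was 0.33 ± 0.11 (SE) with an edgeR adjusted p of 0.0588, and the adjusted p was 0.0437 with RLE in place of TMM scaling and 0.0291 in DESeq2. It was also below the threshold when HFD male 4, HFD female 1, ND male 4 or ND female 3 was left out. Cat had 7.67, 4.93, 7.51 and 4.45 CPM in HFD males and 5.58, 8.04, 4.88 and 0 CPM in HFD females, against 1.47 to 2.57 CPM in the 8 ND libraries. In this gene 7 of the 8 HFD libraries exceeded every ND library, and HFD female 4 had no read. The log2 fold change of Cat was 1.31 ± 0.46 (SE), with an edgeR adjusted p of 0.0904, which was 0.00053 without HFD female 4, 0.0168 in DESeq2 and 0.0247 with sample quality weights. Gstm5, a mu-class transferase, had a log2 fold change of 0.52 ± 0.16 (SE) and an edgeR adjusted p of 0.0538.

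**Figure D4:**
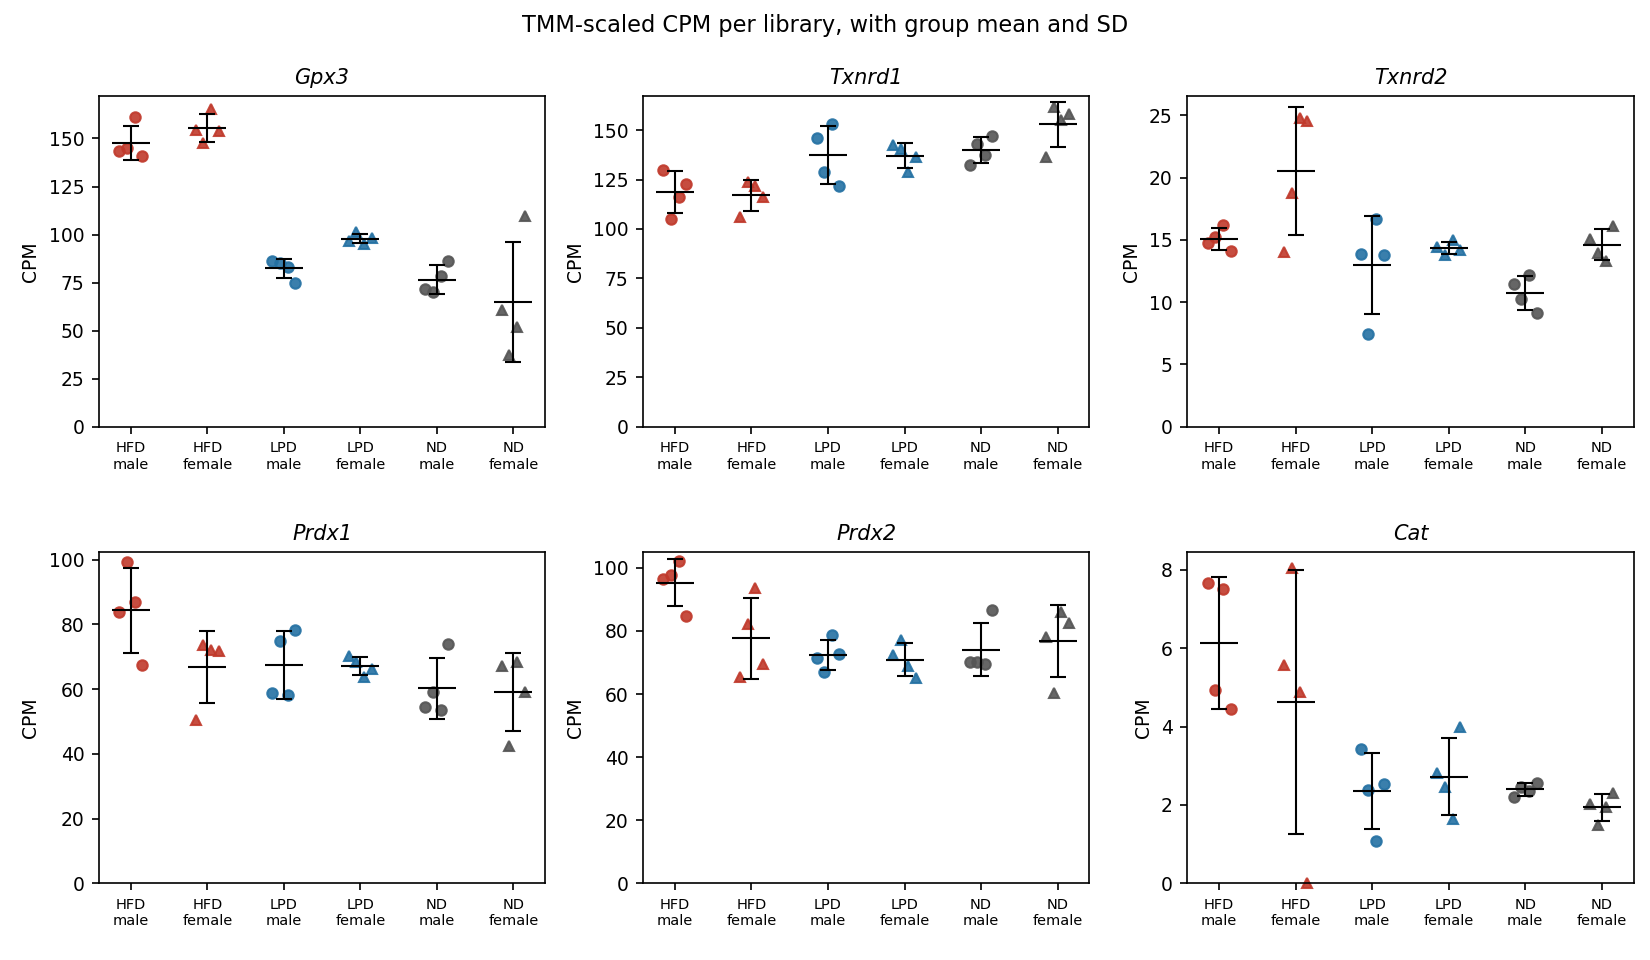
CPM per library, with the mean and SD of each group of 4, for Gpx3, Txnrd1, Txnrd2, Prdx1, Prdx2 and Cat (circles, males; triangles, females). The 8 HFD libraries of Gpx3 sit between 141 and 166 CPM, above all ND libraries, and those of Txnrd1 sit below all ND libraries.

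Txn1, Sod1 and Gpx4 did not pass between HFD and ND. Txn1 had 49.2, 53.6, 51.3 and 50.6 CPM in HFD males and 13.6, 44.6, 44.2 and 37.9 CPM in HFD females, against 31.1 to 47.7 CPM in ND libraries. HFD males were above every ND library, HFD female 1 was far below, and the log2 fold change over both sexes was 0.15 ± 0.15 (SE). Without HFD female 1 it was 0.28, with an edgeR adjusted p of 0.045. Sod1 ranged from 100.4 to 152 CPM in HFD and from 94.4 to 133 CPM in ND, a log2 fold change of 0.13 ± 0.08 (SE). Gpx4 ranged from 44.6 to 85.6 CPM in HFD and from 47.1 to 79.2 CPM in ND, with 0.20 ± 0.10 (SE) on the log2 scale. These ranges overlapped over most of their width. Gpx1, Sod2 and Keap1 did not pass over both sexes either, with edgeR adjusted p of 0.327, 0.451 and 0.560. Mean CPM in HFD and ND were 38.4 and 44.2 for Gpx1, 98.5 and 104.7 for Sod2 and 65.6 and 58.2 for Keap1.

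No gene of the NRF2 group or of glutathione synthesis passed in HFD against ND. Nfe2l2 ranged from 19.0 to 35.1 CPM in HFD, against 19.2 to 26.8 CPM in ND, a log2 fold change of 0.17 ± 0.10 (SE). Nqo1 ranged from 2.33 to 16.8 CPM, against 3.71 to 10.9 CPM in ND, with 0.33 ± 0.26 (SE) on the log2 scale. Hmox1 ranged from 1.82 to 6.85 CPM, against 3.41 to 6.19 CPM in ND, with -0.20 ± 0.33 (SE) on the log2 scale. HFD and ND overlapped for all 3 genes. Gclc, the catalytic subunit of the ligase that limits glutathione synthesis, ranged from 19.98 to 33.7 CPM, against 22.04 to 27.3 CPM in ND, a log2 fold change of 0.02 ± 0.10 (SE). Among the 41 tested genes with a promoter window, 2 of 9 with the NRF2 core and 2 of 32 without it passed the test. Of all genes tested, 7.2% passed. The 2 with the core were Txnrd1, which fell, and Gsta3, which rose but passed the filter through the HFD libraries. The median log2 fold changes were 0.13 with the core and 0.12 without it. Whether the core bears on the HFD differences was not tested.

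The 2 sexes were also compared with their own controls. In males, 1 of the 48 genes rose in HFD, against 0.577% of all genes tested, and none fell, against 0.676%, in edgeR. The 1 gene was Gpx3, with a log2 fold change of 0.95 ± 0.18 (SE) and an edgeR adjusted p of 0.00504. An unadjusted p below 0.05 was found for 13 of the 48 and for 1831 of all 19235 genes. DESeq2 called 4 of the 40 genes of the set that it tested in males, where it called 5.05% of all genes. In females, 2 genes rose (Gpx3 and Keap1), against 1.98% of all genes, and 3 fell (Hmox2, Txnrd1 and Sod2), against 7.35%. Gpx3 had a log2 fold change of 1.26 ± 0.18 (SE) there, Txnrd1 of -0.39 ± 0.09 (SE) and Hmox2 of -0.73 ± 0.16 (SE), and for all 3 the 4 HFD and 4 ND females did not overlap, where 1.89% of all genes lay wholly above and 9.33% wholly below. Without HFD females 1 and 4 the value of Hmox2 was -0.41, with an edgeR adjusted p of 0.0563. Fitted on the 8 female libraries alone, none of the 5 passed in edgeR (adjusted p 0.167 for Gpx3 and 0.259 to 0.723 for the others), and sample quality weights kept only Gpx3. Of all genes, 0.16% passed in the fit on female libraries alone and 0.489% with the weights. In males the count moved too, with 12 of 45 tested genes called when the 8 male libraries were fitted alone, where 14.5% of all genes were, and 22 of 48 with sample quality weights, where 21.8% of all genes were.

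HFD was next set against LPD, the other maternal diet. In this pair 3 genes rose, against 2.38% of all genes tested, and 1 fell, against 7.61%, in edgeR. Of the 3, Gsta3 passed the filter on low counts through the HFD libraries, where it is high. The HFD libraries entered the comparison with ND as well, so the 2 comparisons are not independent. Gpx3 had 141 to 166 CPM in HFD, against 75.0 to 101 CPM in LPD, with no overlap, a log2 fold change of 0.75 ± 0.13 (SE) and an edgeR adjusted p of 0.000364. Of all genes tested, 0.281% had every HFD library above every LPD library. Txnrd1 had a log2 fold change of -0.22 ± 0.06 (SE) and an edgeR adjusted p of 0.0226, with 4 of 8 HFD libraries below every LPD library, and was no longer called without HFD male 2, LPD male 1 or LPD male 3, with no filter (adjusted p 0.0600), with only the compared libraries (0.0746) or without HFD females 1 and 4 (0.0689). Prdx2, an abundant cytosolic peroxiredoxin, had 96.6, 97.7, 102 and 84.7 CPM in HFD males and 65.5, 82.1, 93.5 and 69.5 CPM in HFD females, against 64.9 to 78.7 CPM in the 8 LPD libraries. Of the 8 HFD libraries 6 exceeded every LPD library, all 4 males among them, and the log2 fold change was 0.26 ± 0.08 (SE) with an edgeR adjusted p of 0.0423. That call was lost on leaving out any of 15 libraries (HFD males 1, 2 and 3, HFD female 3, LPD males 1, 2 and 4, LPD females 1, 3 and 4, ND males 1, 2 and 3 and ND females 1 and 4), with adjusted p up to 0.0911. Prdx2 overlaps Junb and Rnaseh2a on the opposite strand, Junb at an average of 437 CPM, and the strand setting of the counting is not known here. Gsta3 held 211 reads in HFD libraries, against 33 in LPD libraries, a log2 fold change of 2.94 ± 0.83 (SE) and an edgeR adjusted p of 0.0231, and was no longer called without HFD female 4 or LPD male 1 or with only the compared libraries (0.0931). It passed the filter on low counts through the HFD libraries, so its call against LPD is no independent support either. The 23 hepatocyte markers without Ttr summed to 22.8 to 30.0 CPM in LPD males and 19.3 to 22.7 CPM in LPD females, below all 8 HFD libraries, and their part in these differences was not tested.

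No gene of the set passed the test between LPD and ND over both sexes, a comparison in which 0.832% of all genes did. In edgeR 8 of the 48 had an unadjusted p below 0.05, as had 1790 of all 19235 genes. DESeq2 called 0 of the 42 genes of the set that it tested, where it called 3.96% of all genes. The median log2 fold change was 0.05 over the 48 genes and -0.01 over all genes. Sample quality weights in limma called 8 of the 48, where they called 20.2% of all genes. Within males 0.187% of all genes passed, with 3 of the 48 and 1081 of all 19235 genes at an unadjusted p below 0.05. Within females 0.307% passed, with 6 of the 48 and 1458 of all genes at that level. The edgeR count of called members was 0 in both sexes. DESeq2 called 0 members in males, where it called 0.845% of all genes, and 1 in females, where it called 4.44%.

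The genes with the smallest p in LPD against ND came from the NRF2 group, the transferases and Gpx3. Nfe2l2 ranged from 24.2 to 34.0 CPM in LPD, with a median of 27.5 CPM, against 19.2 to 26.8 CPM in ND, with a median of 22.5 CPM. Of the 8 LPD libraries 5 lay above every ND library, and the log2 fold change was 0.29 ± 0.10 (SE), with an edgeR adjusted p of 0.189. Gstm1 had a log2 fold change of 0.46 ± 0.16 (SE) and Gstp1 one of -0.38 ± 0.18 (SE), both with edgeR adjusted p above the threshold, at 0.222 and 0.491. Hmox1 ranged from 0.345 to 4.04 CPM in LPD, against 3.41 to 6.19 CPM in ND, with -0.84 ± 0.34 (SE) on the log2 scale and an edgeR adjusted p of 0.347. Gpx3 had 75.0 to 101 CPM in LPD, against 37.5 to 109.6 CPM in ND, with 0.35 ± 0.13 (SE) on the log2 scale. Its edgeR adjusted p was 0.254, and 0.000371 without ND female 4. Keap1 had a log2 fold change of 0.20 ± 0.10 (SE), Nqo1 of 0.44 ± 0.26 (SE), Cat of 0.23 ± 0.46 (SE) and Prdx1 of 0.17 ± 0.11 (SE). The log2 fold changes of Txn1, Txnrd1, Gpx1, Gpx4, Sod1, Sod2 and Gclc lay between -0.10 and 0.10.

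Whether the diet effects differed between the 2 sexes was tested with the interaction of diet and sex. For HFD, 1 gene had a higher effect in males than in females, against 3.0% of all genes tested, and 1 a lower effect, against 0.634%, in edgeR. The median of this difference was 0.29 over the 48 genes and 0.10 over all genes, so values are best read against that shift. For LPD no gene passed, against 0.00520% of all genes. An unadjusted p below 0.05 was found for 2 of the 48 (Gpx4 and Prdx5) and for 806 of all 19235 genes. DESeq2 called 0 genes of the set there, where it called 0.442% of all genes.

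Keap1 (chr9:21229730-21239361), which encodes the sensor that targets NRF2 for degradation, had different HFD effects in the sexes. HFD males had 50.7, 44.1, 47.8 and 50.7 CPM, against 58.4, 55.5, 62.9 and 66.8 CPM in ND males. HFD females had 101.0, 68.1, 95.9 and 66.5 CPM, against 49.4, 51.7, 53.2 and 68.1 CPM in ND females. Every HFD male lay below every ND male, an order that 9.66% of all genes tested had. HFD females 1 and 3 lay above every ND female. The log2 fold change was -0.33 ± 0.14 (SE) in males, not past the test, and 0.58 ± 0.14 (SE) in females, with edgeR adjusted p of 0.335 and 0.00741. The difference of the effects, males minus females, was -0.91 ± 0.19 (SE) with an edgeR adjusted p of 0.00951.

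Hmox2 (chr16:4726361-4766742) had the higher effect in males. HFD males had 44.1, 38.9, 42.0 and 45.4 CPM, against 35.4, 39.2, 40.2 and 38.5 CPM in ND males. HFD females had 19.7, 42.2, 39.6 and 26.8 CPM, against 45.5, 52.3, 65.1 and 50.3 CPM in ND females, without overlap. Of all genes tested, 9.33% had every HFD female below every ND female. The difference of the effects was 0.88 ± 0.23 (SE) with an edgeR adjusted p of 0.0315. HFD females 1 and 4, the lowest here, were also the HFD female libraries with the fewest genes detected, and without them the difference was 0.57, with an adjusted p of 0.0582. The call was also lost without any of 8 single libraries (HFD males 1, 3 and 4, ND males 1 to 4 and ND female 3), with adjusted p up to 0.0825. Hmox2 overlaps Cdip1 on the opposite strand, at an average of 60.6 CPM.

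Sod2 fell in HFD females. HFD females had 82.7, 100.1, 103.7 and 81.9 CPM, against 102.0, 105.8, 118 and 115 CPM in ND females, a log2 fold change of -0.26 ± 0.08 (SE) with an edgeR adjusted p of 0.0455. HFD female 3 lay above the lowest ND female, and leaving out any of 13 libraries (HFD male 3, HFD females 1 and 4, LPD male 1, LPD females 2 and 3, ND males 1 to 4 and ND females 2, 3 and 4) lost the call, with adjusted p up to 0.136. HFD males had 106, 106, 103.6 and 103.6 CPM of Sod2, against 99.2, 100.3, 98.98 and 98.2 CPM for ND males. The difference of the effects was 0.34 ± 0.12 (SE), with an edgeR adjusted p of 0.107, so it was not shown to differ between the sexes.

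Averaged over the 3 diets, 4 genes were higher in males than in females, against 3.59% of all genes tested, and none was lower, against 1.28%, in edgeR. Of the 48 genes 11 had an unadjusted p below 0.05, as had 3056 of all 19235 genes. DESeq2 called 6, where it called 6.75% of all genes, with 4 higher and 2 lower in males. Members lower in males were also called with sample quality weights (3 higher, 1 lower) and without HFD females 1 and 4 (4 higher, 3 lower). Prdx4 (chrX:155323918-155340754), the peroxiredoxin of the endoplasmic reticulum, is the only gene of the set on the X chromosome. Males had 11.7 to 23.7 CPM with a median of 16.8 CPM, against 5.20 to 11.7 CPM in females with a median of 10.2 CPM. Of the 12 male libraries 11 exceeded every female library, LPD male 2 being the exception, and the log2 fold change was 0.83 ± 0.12 (SE) with an edgeR adjusted p of 0.000124. The group means were 20.9 ± 3.60 CPM in HFD males, against 8.76 ± 2.53 CPM in HFD females, 16.1 ± 3.18 CPM in LPD males, against 10.2 ± 1.14 CPM in LPD females, and 15.4 ± 1.79 CPM in ND males, against 10.3 ± 1.49 CPM in ND females (SD, n = 4 each).

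Gpx1 and Gpx2 were also higher in males. Gpx1 had 39.4 to 56.7 CPM in males, with a median of 47.8 CPM, against 14.5 to 50.3 CPM in females, with a median of 37.5 CPM. The log2 fold change was 0.46 ± 0.11 (SE) and the edgeR adjusted p 0.0132, with HFD female 1 lowest at 14.5 CPM. Gpx2 had 6.34 to 12.4 CPM in males, with a median of 8.71 CPM, against 3.30 to 14.02 CPM in females, with a median of 4.70 CPM. HFD female 4 was highest of all at 14.02 CPM, and the log2 fold change was 0.72 ± 0.19 (SE) with an edgeR adjusted p of 0.0226. Sod3 held 87 reads in the 12 male libraries, against 27 in the 12 female libraries, and none in the 4 HFD females. Its fitted log2 fold change of 2.85 (edgeR adjusted p 0.0332) depends on those empty libraries and on the prior count, and the call was lost on leaving out any of 13 libraries (HFD males 2 and 4, LPD males 2 and 3, LPD females 1, 2 and 3, ND males 1, 2 and 4 and ND females 1, 2 and 3), with adjusted p up to 0.0821.

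**Figure D5:**
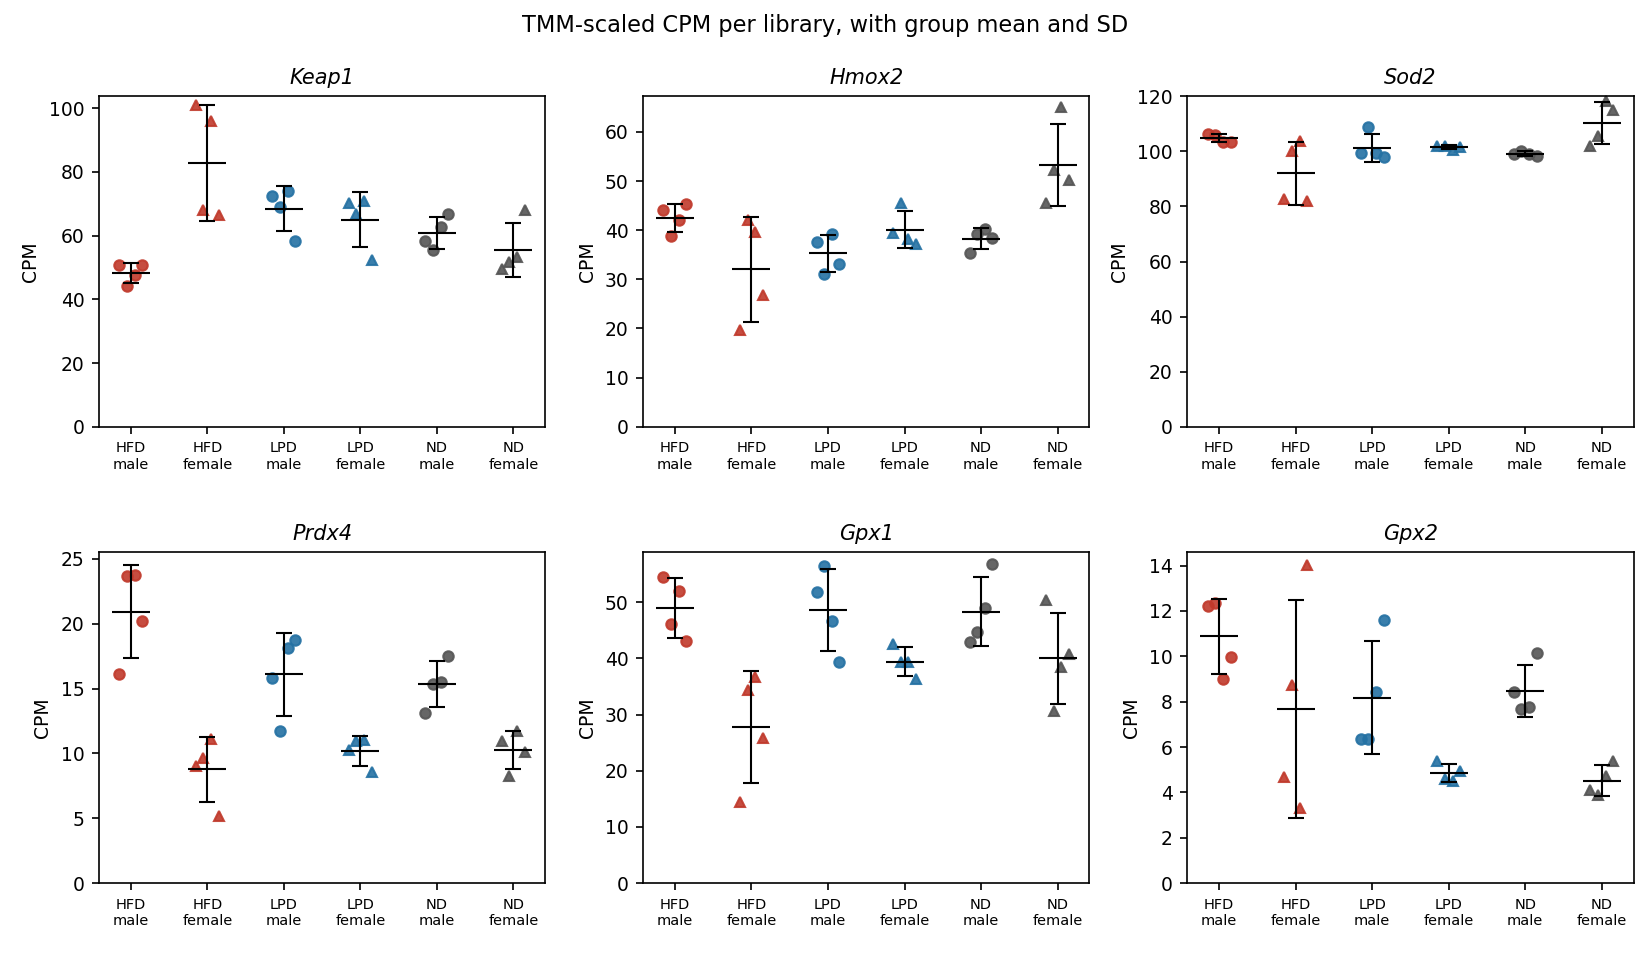
CPM per library, with the mean and SD of each group of 4, for Keap1, Hmox2, Sod2, Prdx4, Gpx1 and Gpx2 (circles, males; triangles, females). Keap1 in HFD lies below ND in males and mostly above it in females, Hmox2 the other way, and Prdx4 averages 20.9 CPM in HFD males, against 8.76 CPM in HFD females.

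Genes that feed or surround these enzymes were read from 6 further lists, whose counts stand beside 1.67% of all genes higher and 5.52% lower in HFD against ND and 0.832% called in LPD against ND. Of 21 tested genes of NADPH supply, which powers both reductases, 1 rose in HFD against ND and none fell. It was Idh1, the cytosolic isocitrate dehydrogenase, at 26.9 to 50.0 CPM in HFD, against 22.7 to 30.7 CPM in ND, with a log2 fold change of 0.45 ± 0.11 (SE). In LPD against ND 1 gene of this list fell, the mitochondrial folate enzyme Mthfd2, by 0.38 on the log2 scale (edgeR adjusted p 0.0355).

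Of 30 tested genes of cysteine supply and glutathione turnover, 2 rose and 2 fell in HFD against ND. Glo1, glyoxalase 1, which clears methylglyoxal with glutathione, was at 25.3 to 54.3 CPM in HFD, against 54.4 to 82.2 CPM in ND, without overlap. Its log2 fold change was -0.84 ± 0.11 (SE) with an edgeR adjusted p of 1.67e-05. Anpep, an aminopeptidase, rose by 0.60 ± 0.11 (SE) on the log2 scale. Mgst1, a microsomal glutathione transferase abundant in liver, held 203 reads in HFD libraries, against 8 in ND libraries (log2 fold change 5.80 ± 1.197 SE), and was at 0 in 2 HFD libraries. No LPD or ND library held more than 4 reads of Mgst1. It passed the filter on low counts through the HFD libraries, where it is high, so its call is no independent support. The hepatocyte markers described above moved with the same libraries as Idh1, Anpep and Mgst1, and their part was not tested. Ggt1, which cleaves extracellular glutathione, held 6 reads in HFD libraries, none of them in females, against 56 in ND libraries. In LPD against ND, Chac1, which degrades glutathione and is induced by ATF4, was at 2.58 to 10.5 CPM in LPD, against 6.01 to 24.8 CPM in ND, a log2 fold change of -1.07 ± 0.20 (SE). Cbs, of the transsulfuration route to cysteine, rose by 0.41 ± 0.09 (SE) on the log2 scale in LPD (edgeR adjusted p 0.026).

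Of 34 tested NRF2 regulators and other NRF2 targets, none rose and 2 fell in HFD against ND in edgeR. Nfe2l1, a transcription factor related to NRF2, was at 170.2 to 278 CPM in HFD, against 282 to 331 CPM in ND, without overlap, and its log2 fold change was -0.40 ± 0.08 (SE) with an adjusted p of 0.00161. Dpp3, whose protein binds KEAP1, had a log2 fold change of -0.36 ± 0.11 (SE). Of 23 selenoprotein genes, 1 fell in HFD, the deiodinase Dio1, at 10.1 to 17.0 CPM in HFD, against 6.84 to 43.7 CPM in ND, and 1 fell in LPD, Selenok, by 0.42 on the log2 scale. Among the sources of superoxide and peroxide, Ncf1, an NADPH oxidase subunit, fell in HFD, with 14 reads in HFD males, against 48 in ND males, and none in HFD females, against 52 in ND females. Xanthine dehydrogenase, Xdh, also passed over both sexes, but it held 18 reads in HFD males, against 14 in ND males, and none in HFD females, against 50 in ND females, so its fall lay in the HFD females alone, the libraries with the fewest genes at low counts. None of the 33 thioredoxin-like proteins, methionine sulfoxide reductases and sestrins passed in HFD or LPD against ND in edgeR.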

How the data were processed

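RNA was sequenced from sorted β cells of 24 samples in 6 groups of 4. The authors deposited raw counts per gene and FPKM, which the count table and gene lengths gave back within 0.0005. The submitters' processing notes name cutadapt 2.10, STAR 2.7.8a, HOMER and DESeq2 with the build GRCm38.p6. How reads were counted, on which annotation release and with what strand setting, is not given in the sources used here. Groups follow the column names of the tables.

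Genes low in all groups were removed with edgeR's filterByExpr, leaving 19235. One edgeR quasi-likelihood model (edgeR 4.0.16, R 4.3.3, TMM scaling) was fitted to all 24 libraries with 1 mean per group, and p-values were adjusted by Benjamini-Hochberg over all genes, with a threshold of 0.05. CPM are counts scaled by the library total over the genes tested, times its TMM factor. Replicate numbers were not treated as pairs in the reported fit. Between HFD or LPD and ND libraries of the same sex, 2 of 16 same-number pairs correlated above 0.1 (range -0.115 to 0.166). Low correlations in groups of 4 cannot show that the numbers carry no pairing. On simulated counts for HFD against ND (18849 genes), 90% of 100 genes changed by 1 on the log2 scale and 44% of 100 changed by 0.5 were called. Among the unchanged genes 8 were called. The changed genes were drawn from the more abundant genes only, so these shares do not cover genes at low CPM. Alternatives were RLE scaling, DESeq2 1.42.0, other filters, limma 3.58.1 with sample quality weights, fits on the compared libraries only, a replicate block, grouping by the library-number line, and leaving libraries out. The marker sum without Ttr was added after the data were seen.

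Genes of the set were given by role, but some glutaredoxins and glutathione S-transferases are not named. Full values were given for genes called in a diet comparison over both sexes at a mean of at least 1 CPM, for genes called in an interaction or between sexes, and for Gpx1, Gpx3, Gpx4, Prdx1, Txn1, Txnrd1, Sod1, Sod2, Cat, Gclc, Nqo1, Hmox1, Nfe2l2 and Keap1. Up to 4 called genes with the smallest p were named from each further list. The genes and lists were chosen with earlier results of these data known. Some genes of the further lists and some overlapping genes are not reported here.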

Additional observations from a re-analysis of the deposited data

Results flagged for a closer look

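Among 21 genes described in full, 126 groups of 4 libraries were tested for a library far from the other 3, and 5 were found, where chance gives about 1 in 20 groups. Hmox1 was at 0.345 CPM in LPD male 4, against 3.12 to 3.53 CPM in the other LPD males. Prdx1 was at 50.4 CPM in HFD female 1, against 71.7 to 73.6 CPM in the other HFD females. Prdx2 was at 86.8 CPM in ND male 4, against 69.4 to 70.2 CPM in the other ND males. Sod1 was at 94.4 CPM in ND female 2, against 121 to 126 CPM in the other ND females. Sod2 was at 109 CPM in LPD male 2, against 97.8 to 99.5 CPM in the other LPD males. The HFD effect differed between the sexes by the interaction test for Keap1, by -0.91 on the log2 scale (males minus females), and for Hmox2, by 0.88.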

How the results depend on the processing

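The number of genes called depended on the setting. Of the set 48 genes were tested, except 55 with no filter, 45 with the stricter filter, 45 to 47 with only the compared libraries and 31 to 51 in DESeq2, and the share of all genes called also moved, up to 21.8% with quality weights, against at most 9.99% in the reported fit. The share of all genes called in the same fit follows each count in brackets. HFD against ND had 4 calls (7.2%), 7 in DESeq2 (9.16%), 2 with the stricter filter (4.24%) and 10 without HFD females 1 and 4 (9.54%). Grouped by library numbers it also had 4 (9.99%), but 1 up and 3 down, against 3 up and 1 down. LPD against ND had 0 (0.832%), 8 with quality weights (20.2%) and 2 when only the compared libraries were fitted (4.92%). It had 2 without HFD females 1 and 4 (3.34%) and 4 by library numbers (7.2%). HFD against LPD had 4 (9.99%), and 8 in DESeq2 (12%), 2 with no filter (5.59%) and 1 with compared libraries (5.05%). It had 10 without HFD females 1 and 4 (14.5%) and 0 by library numbers (0.832%). HFD males had 1 (1.25%), and 4 in DESeq2 (5.05%), 22 with weights (21.8%) and 12 with compared libraries (14.5%). They had 8 without HFD females 1 and 4 (3.89%) and 2 by library numbers (2.41%). HFD females had 5 (9.33%), and 8 in DESeq2 (13%), 1 with weights (0.489%), 0 with compared libraries (0.16%) and 2 by library numbers (8.64%). LPD males had 0 (0.187%), 9 with weights (20.6%) and 4 by library numbers (2.08%). LPD females had 0 (0.307%), 1 in DESeq2 (4.44%), 7 with weights (7.54%) and 1 with compared libraries (1.36%). They had 3 without HFD females 1 and 4 (1.7%) and 7 by library numbers (10.2%). The HFD interaction had 2 (3.64%), and 1 with the stricter filter (1.52%), weights (0.109%), compared libraries (3.09%) or library numbers (2.65%). The LPD interaction had 0 (0.0052%), 5 with weights (5.87%) and 3 by library numbers (5.59%). Males against females had 4 (4.87%), 7 without HFD females 1 and 4 (7.27%) and 0 by library numbers (2.33%). Leaving out 1 library gave 3 to 8, 0 to 1, 1 to 8, 1 to 2, 4 to 9, 0, 0 to 1, 1 to 4, 0 and 3 to 6 calls in these comparisons, in this order. The shares of all genes called with 1 library left out are not given here, so these ranges describe no trait of the set. The replicate block gave 4 (6.47%), 0 (0.676%), 3 (8.7%), 1 (1.07%), 5 (8.75%), 0 (0.146%), 0 (0.302%), 2 (2.65%), 0 (0%) and 3 (4.09%). The causes were not tested.

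Gpx3 and Txnrd1 in HFD against ND kept their calls when any 1 of the 24 libraries was left out. Gsta3 did too, but it passed the filter through the HFD libraries, so this is no independent support for it. Values near 0 changed sign. Gpx1 in LPD against ND was 0.018 with weights and -0.064 to 0.055 when 1 library was left out, Txn1 there -0.079 to 0.030. Gclc in HFD against ND was -0.0060 with no filter, -0.048 with weights, -0.071 without HFD females 1 and 4, and -0.036 to 0.073 when 1 library was left out.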
